A study of Mus musculus with 5 samples.

Results

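The genes described here encode the enzymes that build and break down glycogen and the subunits that bring protein phosphatase 1 (PP1) to glycogen particles. They were taken by symbol from the deposited count tables of mouse glioma cells, and all 9 genes on the list were found among the 29495 with a row. Of these, 5 encode targeting subunits (Ppp1r3b, Ppp1r3c, Ppp1r3d, Ppp1r3e and Ppp1r3f) and 4 encode enzymes (Gys1, Gbe1, Pygb and Pygl). The list was chosen by symbol with the CPM (counts normalised to library size) of the IGF-1 and control libraries already known, so it was in part selected on this comparison. The values of these 9 genes in that comparison are therefore a description of these libraries, and no test is used for them.

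Polyadenylated RNA was sequenced from glioma cells of the genotype p53-/-;NF1-/-;tdTomato+/-, which all 5 libraries share. They were taken from a mouse tumor of mixed CD-1 and C57BL/6 background, cultured together with neurons of the olfactory bulb of C57BL/6 pups, and sorted by their red fluorescent protein, tdTomato. The 3 IGF-1 libraries (replicates 3, 4 and 5) came from cells incubated overnight with 20 ng/mL insulin-like growth factor 1, and the 2 control libraries (replicates 1 and 2) from co-cultured cells without it. The plating medium of the neurons contained insulin and serum in both groups. Nothing in the labels ties the libraries to separate cultures or animals, so a p-value covers the spread among these 5 libraries alone, and that spread may be technical.

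Glycogen is a branched glucose polymer that in the brain is held mainly by astrocytes. Glycogen synthase lengthens its chains and the branching enzyme adds branches, while glycogen phosphorylase removes glucose from chain ends. PP1 activates the synthase and inactivates the phosphorylase by removing phosphate, and a targeting subunit of the PPP1R3 family carries it to the particle. Insulin and IGF-1 are known to favour glycogen synthesis, in part through AKT, which inhibits the synthase kinase GSK3.

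Total counts were 18359421, 19036906 and 20144181 in IGF-1 replicates 3, 4 and 5, and 17365697 and 16944315 in the controls. IGF-1 replicate 5 differed most from the rest. The chi-square statistic per degree of freedom was 13.4 and 13.5 between it and the other IGF-1 libraries, 2.33 between those, and 2.29 between the controls. Progenitor markers such as Olig2, Sox10 and Pdgfra were abundant, and their 8 genes summed to 4514 to 4970 CPM with IGF-1 and to 4376 and 4227 CPM in the controls. Microglial markers summed to 0.734 to 1.16 CPM with IGF-1 and to 1.1 and 0.708 CPM in the controls. The 13 neuronal markers with a row summed to 76.0 to 82.6 CPM with IGF-1 and to 70.4 and 71.0 CPM in the controls. The neuronal nuclear protein gene Rbfox3 had 0 or 1 count per library, and 7 of the 13 had a mean under 1 CPM. Others were higher, with 405 to 628 counts per library for Syn1, 344 to 519 for Nefm and 265 to 377 for Nefl. Syt1 had 94, 105 and 232 counts in IGF-1 replicates 3, 4 and 5, and 81 and 94 in the controls. The part of neuronal transcripts in these libraries was not tested.

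Promoter sequences of 7 of the 9 genes were found by symbol in RefSeq (build GRCm38.p6), as windows of 250 bases before and 50 after the gene's start. Those of Ppp1r3b and Ppp1r3e were not found. The windows of Ppp1r3c and Ppp1r3d are shown because both contain the E-box CACGTG and both genes had lower CPM in all IGF-1 libraries. For Ppp1r3d in IGF-1 replicate 5 the margin was small, at 1.86 CPM against 1.90 in control replicate 1. Its raw count there, 38, was above the 33 and 36 of the controls. Both windows were thus picked on the motif and on the selected comparison together, and a link between motif and level was not tested. The window of Gys1, whose enzyme PP1 activates, is shown beside them. Capitals mark the E-box, the GC box GGGCGG and the CCAAT box CCAAT, on either strand, and each sequence is written 5′ to 3′ on the strand of its gene.
Ppp1r3c (chr19:36736555-36736854, minus strand): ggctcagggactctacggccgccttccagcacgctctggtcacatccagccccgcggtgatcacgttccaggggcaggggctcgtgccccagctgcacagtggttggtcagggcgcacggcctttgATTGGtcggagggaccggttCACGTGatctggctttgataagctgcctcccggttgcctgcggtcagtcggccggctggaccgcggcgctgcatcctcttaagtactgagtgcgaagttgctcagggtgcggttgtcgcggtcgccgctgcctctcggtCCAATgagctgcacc
Ppp1r3d (chr2:178414414-178414713, minus strand): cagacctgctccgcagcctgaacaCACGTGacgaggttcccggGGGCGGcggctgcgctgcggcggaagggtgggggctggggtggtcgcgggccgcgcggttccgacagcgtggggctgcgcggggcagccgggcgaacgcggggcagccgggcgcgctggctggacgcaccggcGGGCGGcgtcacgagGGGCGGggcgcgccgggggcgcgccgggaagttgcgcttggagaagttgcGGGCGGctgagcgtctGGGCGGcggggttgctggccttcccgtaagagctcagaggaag
Gys1 (chr7:45434589-45434888, plus strand): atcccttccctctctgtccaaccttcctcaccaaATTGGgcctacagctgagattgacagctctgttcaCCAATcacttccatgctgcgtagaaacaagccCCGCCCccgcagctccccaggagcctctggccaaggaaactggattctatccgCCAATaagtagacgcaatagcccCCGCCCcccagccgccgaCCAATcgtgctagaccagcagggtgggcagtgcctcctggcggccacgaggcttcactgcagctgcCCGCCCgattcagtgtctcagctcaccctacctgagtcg
The E-box began at position -104 from the start in Ppp1r3c and at -226 in Ppp1r3d, and was found in no other of the 7 windows. Among all 32851 promoter windows of this length, 7.15% held it. The Ppp1r3c window also held 2 CCAAT boxes, and that of Gys1 4, against 37.4% of all windows with at least 1. The GC box, present in 35.7% of all windows, occurred 5 times in Ppp1r3d, 3 times in Gys1 and 0 times in Ppp1r3c. The core of hypoxia response elements, ACGTG, which the E-box contains, was matched 3 times in Ppp1r3c, 2 of them within the E-box, against 19.6% of all windows with a match. The letters GTAAACA, a FOXO motif, occurred in 3.65% of all windows and in none of the 7. GC content was 65.3% in Ppp1r3c, 77.0% in Ppp1r3d and 60.3% in Gys1, with a median of 52.7% over all windows.

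Of the 4 targeting subunits that passed the filter, Ppp1r3c had the largest log2 difference with all 5 libraries, with lower levels in the IGF-1 libraries. Its product, also called protein targeting to glycogen, binds PP1, glycogen synthase and phosphorylase. It was read at 8.10, 10.3 and 8.37 CPM in IGF-1 replicates 3, 4 and 5, against 13.8 and 16.2 CPM in the controls. Every IGF-1 library lay below both controls. The means were 8.91 ± 1.18 CPM with IGF-1 (SD, n = 3) and 15.0 ± 1.64 CPM in the controls (SD, n = 2), and the log2 difference was -0.75 with an SE of 0.14. In the fit over all genes, 1.02% lay past an adjusted p of 0.05 by edgeR's quasi-likelihood test. Since the list was selected on this comparison, no call is given for its members. The log2 difference of Ppp1r3c was also -0.75 by limma-voom. It was -0.69, -0.86 and -0.71 without IGF-1 replicate 3, 4 or 5, in that order, and -0.86 and -0.64 without control replicate 1 or 2. In bulk RNA, fewer cells with a transcript and less of it per cell cannot be told apart.

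Astrocyte markers, which mark the cells that hold most brain glycogen, were also compared. The 8 with a row summed to 319.7, 344.1 and 348.2 CPM in IGF-1 replicates 3, 4 and 5, and to 356.7 and 349.1 CPM in the controls. None of the 8 passed the test, and their median log2 difference was -0.03. Most of the sum came from Slc1a2, Slc1a3, Aldoc and S100b. Aqp4 and Aldh1l1, which are among the most specific of the markers, had at most 29 counts in any library. Gfap was at -0.35, Gja1 at -0.27 and Slc1a3 at -0.15 on the log2 scale, while 4 of the 8 markers lay above 0. The part of astrocyte transcripts in the level of Ppp1r3c was not tested.

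Ppp1r3e, which encodes another PP1 subunit of this family, was read at 12.9, 11.6 and 14.6 CPM with IGF-1, in the order of replicates 3, 4 and 5, and at 11.7 and 10.7 CPM in the controls. The groups overlapped, since IGF-1 replicate 4 lay just below control replicate 1. Its log2 difference was 0.22 (SE 0.14). Ppp1r3d, the subunit known as R6, had 0.826, 1.38 and 1.86 CPM with IGF-1 and 1.90 and 2.12 CPM in the controls. All IGF-1 values were below both controls, but replicate 5 nearly reached them, and the counts behind these values were only 15 to 38. The log2 difference was -0.56 with an SE of 0.36. Without IGF-1 replicate 5 it was -0.86, larger in size than the -0.71 of Ppp1r3c in that fit. Without IGF-1 replicate 3 it was -0.31.

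Ppp1r3f, a membrane-linked member of the family, had 3.25, 3.07 and 2.06 CPM in the IGF-1 libraries and 2.94 and 2.95 CPM in the controls. IGF-1 replicates 3 and 4 lay above the controls and replicate 5 below them, and the log2 difference was -0.08 (SE 0.26). It turned to 0.10 without IGF-1 replicate 5. In a GRCm38 annotation 46.9% of the exon bases of Ppp1r3f are shared with Gm36995 on the same strand, which had 11 to 15 counts per library. How reads from the shared bases were counted is not stated in the sources used here. The level of Ppp1r3f and its share and rank below carry this uncertainty. Ppp1r3b, the subunit best known from liver, had 0, 2 and 0 counts with IGF-1 and 1 and 2 counts in the controls, too few for the test. A count of 3, the limit that a count of 0 allows, corresponds to 0.147 to 0.177 CPM across the libraries.

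**Figure D1:**
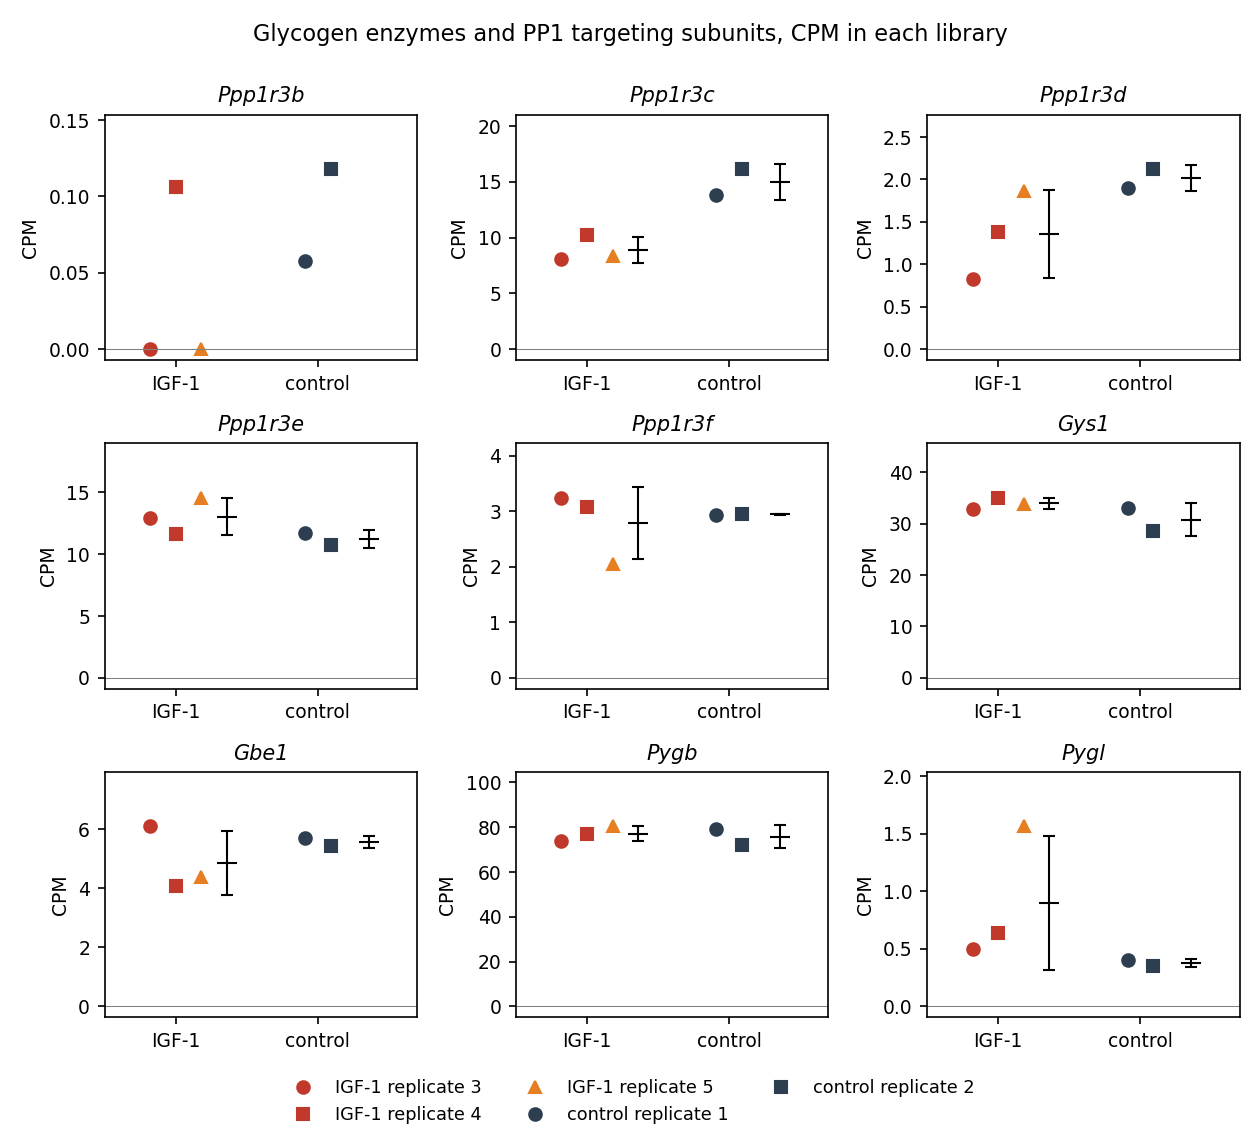
CPM of the 9 genes in each library, with IGF-1 at the left and control at the right of each panel. Points are libraries and the black bars are the mean and SD (n = 3 and n = 2), left out for Ppp1r3b, which had at most 2 counts. Only in Ppp1r3c, Ppp1r3d and Pygl do the IGF-1 and control points not overlap.

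The make-up of the targeting subunit family was then described within each library. Levels were set per kilobase of principal transcript and summed over Ppp1r3b to Ppp1r3g. The sum was 11.0, 11.1 and 11.8 CPM per kilobase in IGF-1 replicates 3, 4 and 5, against 12.7 and 13.1 in the controls. Ppp1r3c made up 27.0%, 33.8% and 26.1% of it with IGF-1 and 40.1% and 45.4% in the controls. Ppp1r3e made up 60.2%, 53.2% and 63.2% with IGF-1 and 47.2% and 42.0% in the controls. Neither share overlapped between the groups, as held for the CPM of 33.1% of all genes tested. The level of Ppp1r3c enters both shares, and the list was selected on this comparison. These 2 shares are bound to each other, since the 2 genes hold most of the sum and a lower share of 1 raises that of the other. The CPM of Ppp1r3e itself overlapped between the groups. Ppp1r3f held 5.69 to 9.65% with IGF-1 and 7.58 and 7.37% in the controls. Ppp1r3d held 2.3 to 4.83% with IGF-1 and 4.6 and 4.98% in the controls, and Ppp1r3b and Ppp1r3g each held less than 1% in every library.

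The ratio of Ppp1r3c to Ppp1r3e counts within a library needs neither a length nor a scaling factor. It was 0.626, 0.886 and 0.574 in IGF-1 replicates 3, 4 and 5, against 1.18 and 1.51 in the controls. Ppp1r3c thus had fewer counts than Ppp1r3e in all IGF-1 libraries and more in both controls. Per kilobase, Ppp1r3e was at 5.93 to 7.45 with IGF-1, above Ppp1r3c at 2.97 to 3.77, whereas in the controls the 2 genes overlapped (5.99 and 5.49 for Ppp1r3e, 5.08 and 5.93 for Ppp1r3c). With the length of all merged exons in place of the principal transcript, Ppp1r3c lay above Ppp1r3e in both controls (5.08 and 5.93 against 4.67 and 4.28) and still below it with IGF-1.

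**Figure D2:**
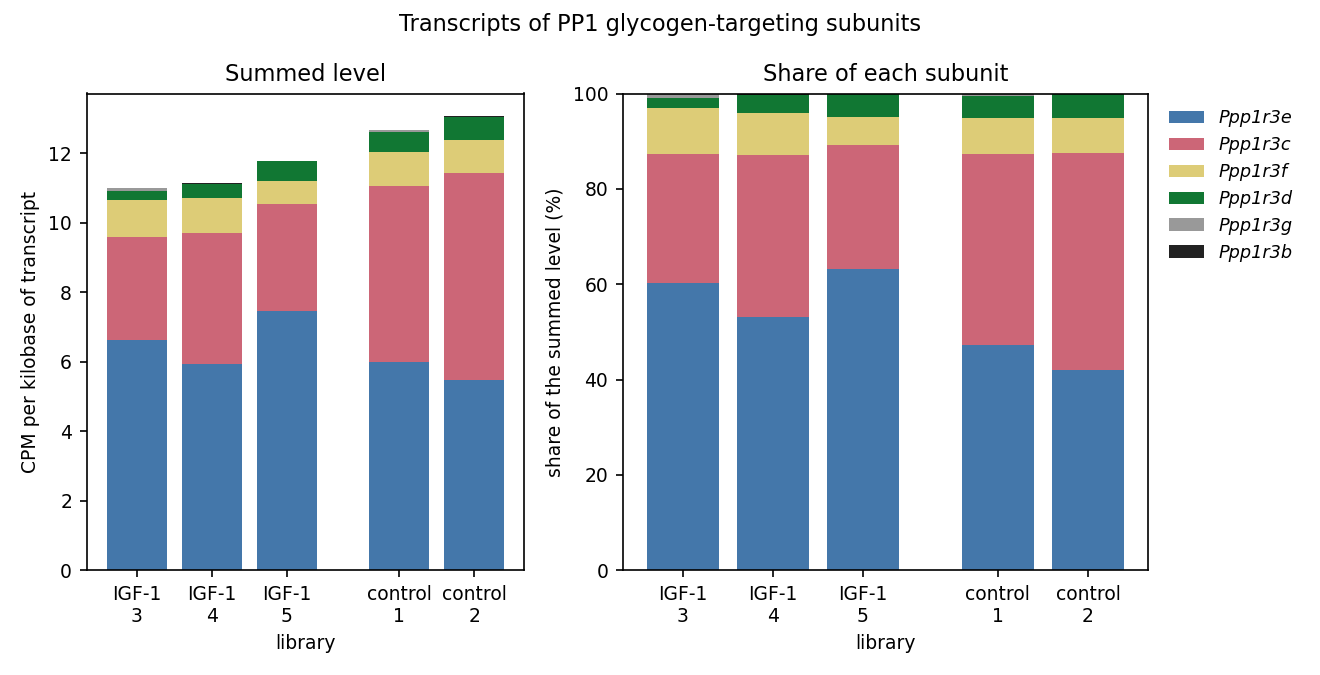
Transcript levels of the PP1 glycogen-targeting subunits in CPM per kilobase, stacked in each library (left), and the share of each in the summed level in % (right), with the IGF-1 libraries left of the controls. The Ppp1r3c share is between 26.1% and 33.8% with IGF-1, and 40.1% and 45.4% in the controls.

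Of the enzyme genes, Gys1, Pygb and Gbe1 had log2 differences of at most 0.20 in size, and Pygl, the least abundant, a larger one. Gys1, the glycogen synthase of muscle and brain, was read at 32.9, 35.1 and 33.9 CPM in IGF-1 replicates 3, 4 and 5, and at 33.1 and 28.6 CPM in the controls. Control replicate 1 lay within the IGF-1 values and control replicate 2 below them. The log2 difference was 0.14 (SE 0.09). It was 0.25 without control replicate 1 and 0.039 without control replicate 2. In the same GRCm38 annotation 6.47% of the exon bases of Gys1 lie opposite Ruvbl2, which had 1642 to 2160 counts per library, and no source used here states whether counting took account of strand.

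Pygb, the brain isoform of glycogen phosphorylase, was the most abundant of the 9 genes. It had 73.9, 76.9 and 80.5 CPM with IGF-1 and 79.4 and 72.1 CPM in the controls. The groups overlapped in part, with control replicate 2 lowest and IGF-1 replicate 5 highest, and the log2 difference was 0.03 (SE 0.07). Gbe1, the gene of the glycogen branching enzyme, had 6.11, 4.08 and 4.40 CPM with IGF-1 and 5.71 and 5.43 CPM in the controls. IGF-1 replicate 3 lay above the controls and the other IGF-1 libraries below them, and the log2 difference of -0.20 had an SE of 0.21.

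Pygl, the liver isoform of the phosphorylase, had 9, 12 and 32 counts in IGF-1 replicates 3, 4 and 5, and 7 and 6 counts in the controls. These were 0.496, 0.635 and 1.57 CPM with IGF-1 and 0.404 and 0.354 CPM in the controls. The groups did not overlap, but the highest value was that of replicate 5, the library that stood apart. The log2 difference was 1.25 with an SE of 0.62. Pygl passed the filter on low counts only through the IGF-1 libraries, and without replicate 4 or without replicate 5 it was too low to be tested. Groups did not overlap in 3 of the 8 tested members, and in 33.1% of all genes tested.

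**Figure D3:**
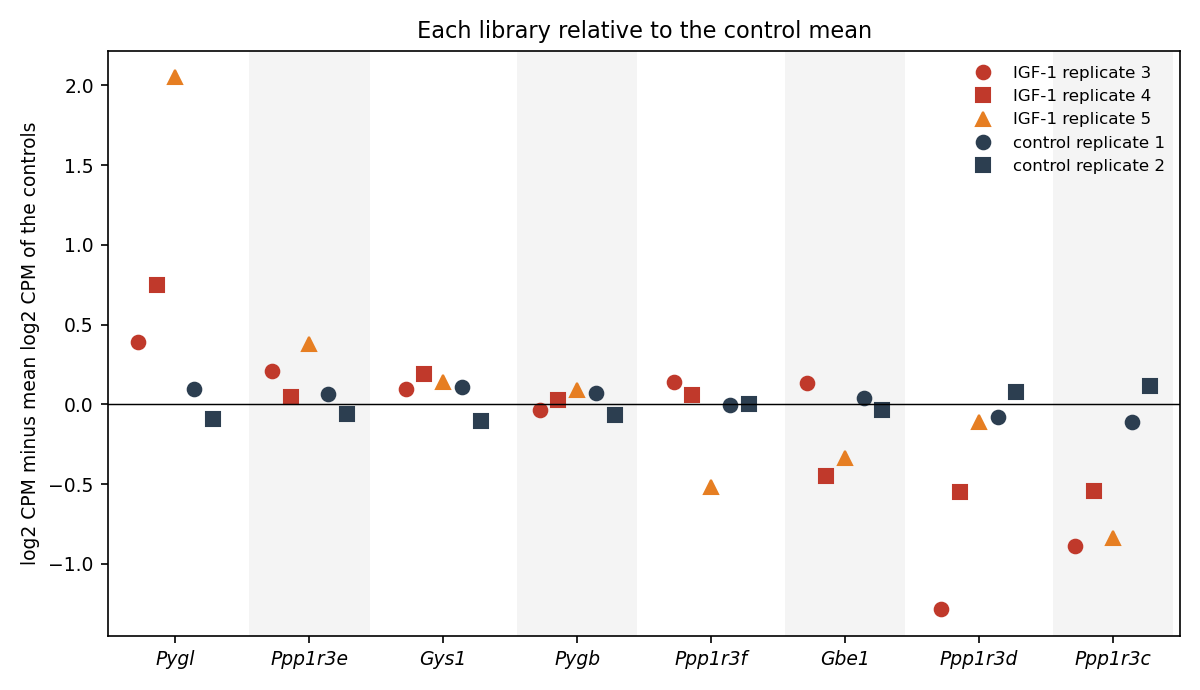
Log2 CPM of each library minus the mean log2 CPM of the controls, for the 8 members with counts in every library. Ppp1r3c lies between -0.89 and -0.54 in the IGF-1 libraries, while replicate 5 lies apart from replicates 3 and 4 for Pygl (2.05) and Ppp1r3f (-0.52).

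Within each enzyme family 1 isoform held nearly all transcripts. Pygb made up 95.2 to 96.5% of the summed phosphorylase level per kilobase with IGF-1 and 97.1 and 97.4% in the controls. Pygm, the muscle isoform, made up 2.28 to 3.58% with IGF-1 and 2.21 and 1.95% in the controls, and Pygl 0.887 to 2.56% with IGF-1 and 0.684 and 0.662% in the controls. Gys1 made up at least 98.6% of the synthase level in every library, and the liver synthase gene Gys2 had 0 to 5 counts. Averaged over the 5 libraries, the order of levels per kilobase was Pygb (19.6), Gys1 (8.89), Ppp1r3e (6.29), Ppp1r3c (4.17), Gbe1 (1.81), Ppp1r3f (0.931), Ppp1r3d (0.495), Pygl (0.245) and Ppp1r3b (0.0128), all in CPM per kilobase. The ranges over libraries overlapped for Ppp1r3e and Ppp1r3c and for Ppp1r3d and Pygl, and for no other neighbours in this order. With merged exon lengths the order was the same, but Ppp1r3f then overlapped with Ppp1r3d, and Ppp1r3d with Pygl no longer did.

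Other genes of glycogen metabolism were tested in the same fit, in lists that were also chosen with earlier results of these data known. Of 42 with a row 38 were tested, and 1 rose and 0 fell at an adjusted p under 0.05 by edgeR, against 0.685% and 0.339% of all genes tested. At an unadjusted p under 0.05, 4 of the 38 were higher and 0 lower, against 7.1% and 5.57% of all genes tested. DESeq2 called 2 higher and 0 lower, against 1.2% and 0.559% of all genes tested. Their median log2 difference was 0.03, beside -0.008 over all genes. The gene that rose was Prkab2, which encodes the β2 subunit of AMP-activated protein kinase (AMPK) and, like β1, contains a glycogen-binding module. It had 28.3, 26.6 and 27.9 CPM in IGF-1 replicates 3, 4 and 5, against 17.7 and 18.9 CPM in the controls. The 3 IGF-1 values lay close together and above both controls. The log2 difference was 0.59 with an SE of 0.09 (edgeR adjusted p = 0.0209). Adjusted p was 0.0965, 0.0624 and 5.05e-06 without IGF-1 replicate 3, 4 or 5, in that order, and 0.427 and 0.352 without control replicate 1 or 2 (edgeR).

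The paralog Prkab1 was at 0.11 on the log2 scale, and the AMPK catalytic subunit genes Prkaa1 and Prkaa2 were at 0.15 and 0.33. None of these 3 passed the test with all libraries. In the list that holds them, with GSK3 and casein kinase 2, which phosphorylate glycogen synthase, 1 of 10 rose and 0 fell. Gsk3a had 67.6 ± 2.28 CPM with IGF-1 (SD, n = 3) and 67.9 ± 3.92 CPM in the controls (SD, n = 2), and Gsk3b was at -0.01. Csnk2a1, the most abundant of the list per kilobase, was at 0.05. These are transcript levels and do not show kinase activity.

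Hexokinase 2, which traps glucose as glucose-6-phosphate, came nearest to the threshold among the rest. Hk2 had 25.6, 25.8 and 22.1 CPM in IGF-1 replicates 3, 4 and 5, against 17.3 and 16.6 CPM in the controls. The groups were separate, and the log2 difference was 0.53 with an SE of 0.11 (edgeR adjusted p = 0.0573, DESeq2 adjusted p = 0.0135). The adjusted p was 0.0782 by limma-voom. By edgeR it was 0.00188 without the filter on low counts and 0.183 without IGF-1 replicate 3. The log2 difference of Hk2 was 0.56 without control replicate 1 and 0.50 without control replicate 2. Its abundant paralog Hk1 was at 0.11 and the glucose transporter gene Slc2a1 at 0.12, and neither passed. Without IGF-1 replicate 5, 5 of the other glycogen genes were higher and 0 lower by edgeR, against 5.49% and 3.65% of all genes tested. The 5 were Hk2 (log2 0.60), Prkab2 (0.58), Prkaa2 (0.41), the phosphoglucomutase gene Pgm2 (0.28) and Csnk2a2 (0.15). Without IGF-1 replicate 3 or 4, 0 of the other glycogen genes were higher and 0 lower by edgeR. Over all genes, 29 and 35 were then higher and 9 and 18 lower.

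The remaining lists gave 0 calls. The 3 PP1 catalytic subunit genes, which every targeting subunit needs, were at -0.11 (Ppp1ca), -0.03 (Ppp1cb) and -0.07 (Ppp1cc) on the log2 scale. Among 5 genes of synthesis, Ugp2, which makes UDP-glucose, was at -0.05, Pgm1 at -0.08 and Gyg, the glycogenin that primes the chain, at -0.12. Among 4 genes of breakdown, Gaa, the lysosomal glucosidase, was at 0.02 and the glucose-6-phosphatase gene G6pc3 at 0.21. All 5 phosphorylase kinase genes were below 0 (median -0.10, with Phka1 at -0.04 and Phkb at -0.10), and all 6 protein kinase A genes above 0 (median 0.10, with Prkar1a at 0.03 and Prkaca at 0.16), while 48.3% of all genes tested lay above 0. None of these 11 genes had an unadjusted p under 0.05, so neither direction is a call. At an unadjusted p under 0.05 the remaining lists together held 1 higher gene, G6pc3 of the breakdown list, and 0 lower genes. Of all genes tested, 7.1% were higher and 5.57% lower at this limit. Epm2a, which encodes the glycogen phosphatase laforin, was at 0.32 (edgeR adjusted p = 0.63). Its partner malin, encoded by Nhlrc1, had 1 to 10 counts per library, and Ppp1r3g and Stbd1 had at most 4.

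**Figure D4:**
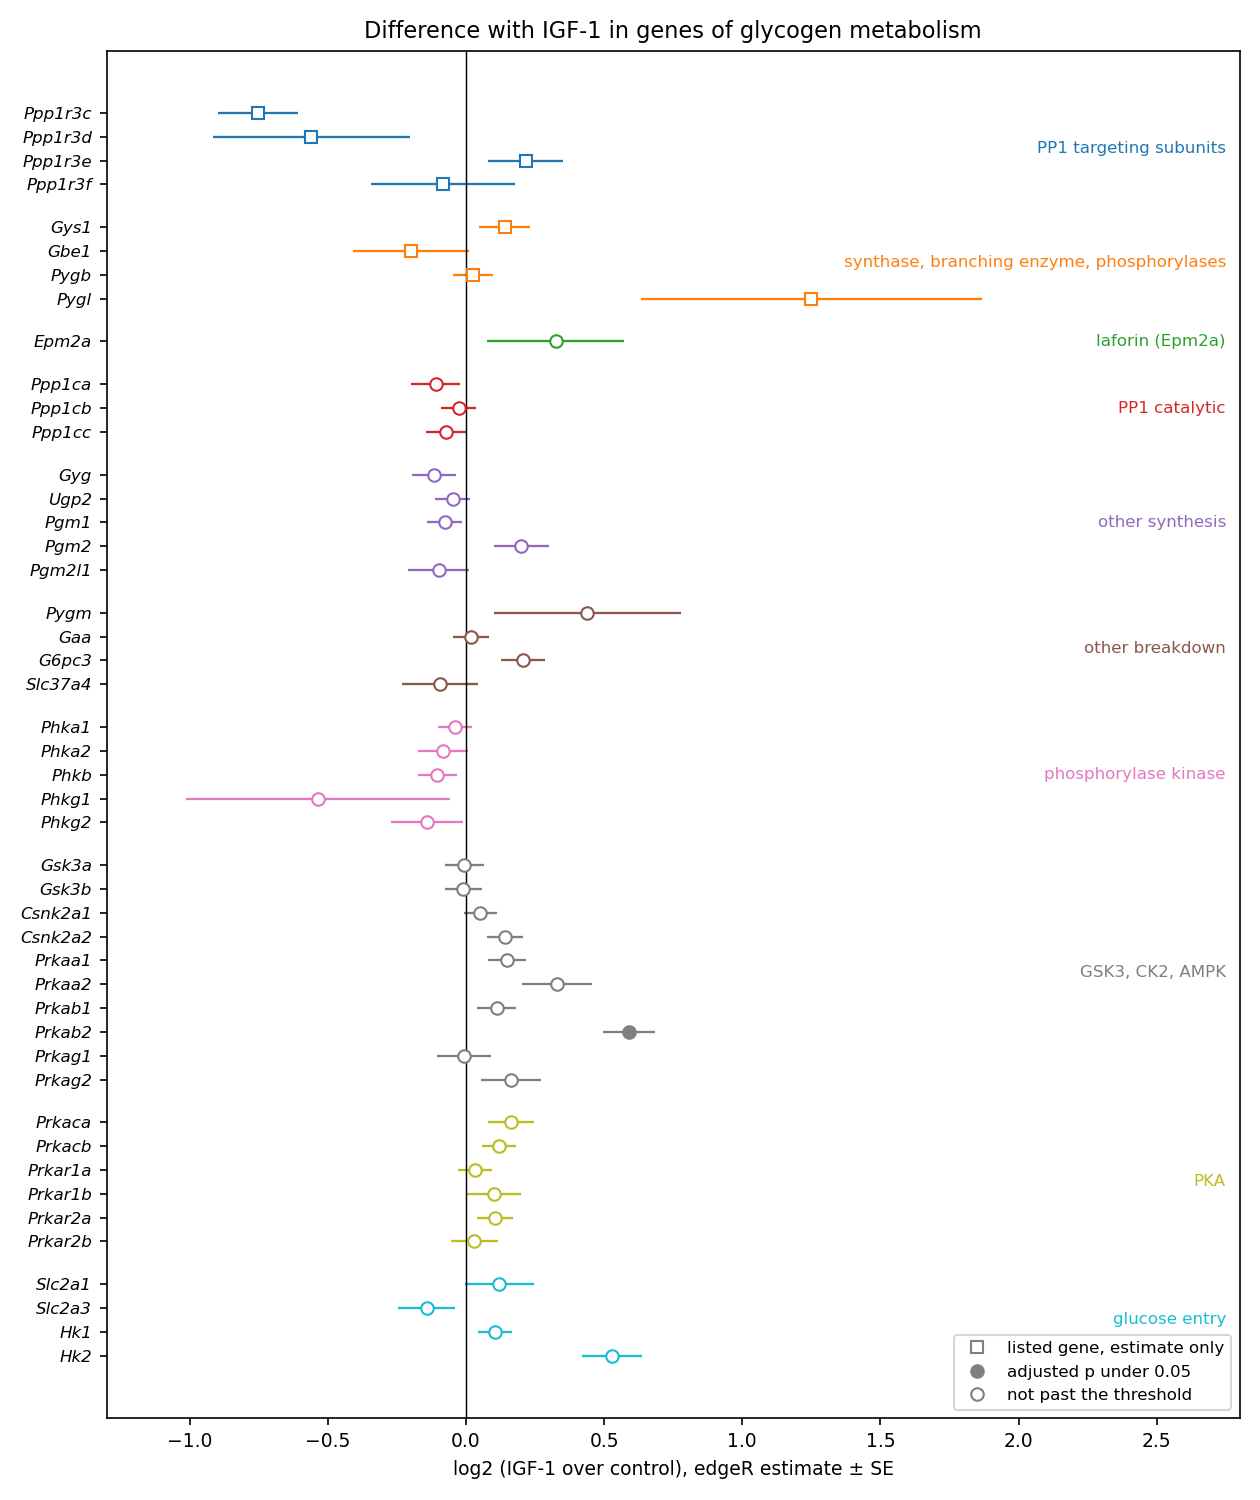
Log2 difference of IGF-1 over control for the 8 tested members (top 2 groups) and 38 other genes of glycogen metabolism, as edgeR estimates with their SE. Squares are the listed genes, selected on this comparison and shown as estimates only, with Ppp1r3c at -0.75. Circles are the other genes, filled where the adjusted p is under 0.05, which holds for Prkab2 at 0.59.

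The genes whose pattern lay closest to that of Ppp1r3c were found by the root mean square difference in log2 CPM relative to the control mean over the 5 libraries, among 10959 other genes of at least 5 CPM. They were the transcription factor gene Egr1 (0.11), the ephrin gene Efna1 (0.11), Kctd12b (0.13), the zinc finger gene Zfp799 (0.14) and Irs1 (0.14), which encodes a docking protein of the IGF-1 receptor. Their log2 differences ran from -0.75 for Kctd12b to -0.64 for Efna1. Egr1 was at 207 ± 22.3 CPM with IGF-1 (SD, n = 3) and 333 ± 7.08 CPM in the controls (SD, n = 2). Irs1 was at 34.3 ± 1.64 CPM with IGF-1 and 53.6 ± 0.188 CPM in the controls (SD, n = 3 and 2). These genes were chosen for their likeness, so their differences are a description.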

How the data were processed

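The authors deposited raw counts of reads per gene symbol, 1 table per library, for 3 IGF-1 and 2 control libraries. Build GRCm39, featureCounts 2.0.1, STAR 2.7.9a, cutadapt 3.4 and DESeq2 1.28.1 are named per the submitters' processing notes, with settings and annotation not given in the sources used here.

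Counts were fitted in R 4.3.3 with edgeR 4.0.16 (filterByExpr with a minimum count of 10 and a minimum total of 15, TMM factors, quasi-likelihood F-test, two-sided). P-values were Benjamini-Hochberg adjusted over 15919 genes, with a threshold of 0.05. CPM are TMM-scaled. The SE is the log2 difference divided by the square root of F. Lengths and exon overlaps came from GENCODE M21 (GRCm38). Alternatives were RLE factors, total counts, no filter, DESeq2 1.42.0, limma-voom (limma 3.58.1) and each library left out; merged exon length was added after seeing the data.

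The 9 members, the gene lists and the tests were chosen with earlier results of these data known. Named are all members, called genes of the other glycogen lists, the 2 most abundant per kilobase of each, and the 5 genes nearest to Ppp1r3c. Prkab1, Prkaa1, Prkaa2, Hk2, Pgm2, Csnk2a2, Gsk3b and the other genes of the lists beyond this rule were named after their values were seen. A gene of these lists is not reported here. Intervals and limits on counts cover counting error only.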

Additional observations from a re-analysis of the deposited data

How the results depend on the processing

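With 2 control libraries, each carries much weight, and 15 to 38 counts for Ppp1r3d and 6 to 32 for Pygl limit their precision. No paired analysis was possible because the groups share no replicate numbers. All genes higher numbered 109, or 385 without the filter, 191 by DESeq2 and 0 to 855 with 1 library left out; genes lower numbered 54, or 221, 89 and 2 to 569. Leaving out IGF-1 replicate 5 gave the highest counts, and either control the lowest. Calls on the members are left out, since the list was selected on this comparison. Other glycogen genes higher numbered 1, or 2 without the filter, 2 by DESeq2 and 0 to 5 with 1 library left out. The log2 difference of Ppp1r3c ran from -0.86 to -0.64 under the 10 alternatives. Leaving out 1 library could not turn its sign, since every IGF-1 library lay below both controls. The log2 difference of Gys1 ran from 0.039 to 0.25 with 1 library left out. Pygb changed sign under 2 of 10 (-0.04 to 0.10) and Ppp1r3f under 1. Other causes of these shifts were not tested. Median log2 differences over all genes ran from -0.011 to 0.0065.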
